A study of Mus musculus with 16 samples.

Results

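Igtp, Irgm1, Irgm2, Iigp1, Tgtp1 and Tgtp2 encode immunity-related GTPases (IRG proteins) of the mouse, and Gvin1 encodes a much larger interferon-inducible GTPase. These 7 genes, of 48795 gene identifiers in the deposited counts, were chosen by symbol and selected on their levels in all 16 libraries, which were known beforehand. Their values are therefore given as a description, without a test, and the same holds for the differences fitted to them. P-values are printed for other genes only, and how many of the 7 passed the threshold of a fit is given as part of that description. Each symbol matched 1 Ensembl identifier, and 7 of 7 passed the filter on low counts in every comparison, Gvin1 through its C57BL/6 libraries alone.

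The libraries came from liver cells of mice aged 4 weeks, with no treatment given in the labels. The mice were C57BL/6 or BALB/c, and each strain was either wild type or Ift88Orpk, an allele of a gene needed to build cilia that is used to model inherited biliary disease. Flow sorting gave 4 populations, namely neutrophils, infiltrating macrophages high (Ly6Chi) or low (Ly6Clo) in Ly6C, and cells that bound the lectin DBA, which the labels call cholangiocytes. Every combination of strain, genotype and population was 1 library of RNA pooled from 6 to 8 mice, with males and females in equal number, so a library is an average over animals and the only replicates are libraries that differ in strain or genotype.

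Gene counts ranged from 10170795 to 26093556 per library. Levels are given as counts per 1000000 gene counts after TMM scaling (CPM), on which scale 3 counts, the floor used for a library without any, came to 0.0933 to 0.376 CPM. In the DBA-sorted libraries the 7 sinusoidal endothelial markers summed to 9325 to 13780 CPM and the 7 cholangiocyte markers to 515.5 to 1035 CPM, so the label is not used here and the population is called DBA-sorted cells. Ift88 itself was at 1.44 to 8.77 CPM in the wild-type and 3.85 to 8.72 CPM in the Ift88Orpk libraries and was lower in the latter in 2 of 8 matched pairs. The count of the whole gene does not read the transgene insertion that defines the allele, so it neither checks nor contradicts the genotype labels, and genotype directions below rest on the labels alone. In sorted bulk RNA, fewer cells of a type and less RNA per cell cannot be told apart.

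Interferon gamma, made chiefly by T and NK cells, acts on promoters through gamma-activated sites (GAS), while type I interferon acts through the interferon-stimulated response element (ISRE). In mouse cells the IRG proteins that these signals induce coat the membrane of vacuoles that hold microbes such as Toxoplasma gondii, and guanylate-binding proteins follow before the vacuole breaks. Irgm1, Irgm2 and Igtp (also called Irgm3) are the regulators, which sit on the cell's own membranes and keep the effectors Iigp1 (Irga6) and Tgtp1 and Tgtp2 (Irgb6) inactive there. In cells without infection, macrophages included, the regulators are also known for their link to autophagy and lysosome function.

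The division between regulators and effectors can be read in the first GTP-binding motif, which is shown for that reason. Regulators carry a methionine where the effectors carry a lysine. The bases below come from GENCODE transcripts of the GRCm38 build, all on chromosome 11, and the capitals mark the codon of that residue, ATG for methionine or AAG for lysine. The motif itself begins at the first ggg codon of each stretch, which follows gtg and act or aca. That ggg is codon 83 of Irgm1 and of Irgm2, codon 91 of Igtp, and codon 63 of Tgtp1 and of Tgtp2.
Irgm1, Irgm2 and Igtp: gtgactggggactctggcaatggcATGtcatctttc
Tgtp1 and Tgtp2: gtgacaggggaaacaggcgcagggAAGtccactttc
Within each class these bases were identical. The Iigp1 transcript also has a lysine codon at this place.

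Promoters of 5 of the 7 genes were in the RefSeq table used (GRCm38.p6; 250 bases before to 50 after the start), and the stretches below show where the GAS letters TTCNNNGAA and the ISRE letters GAAANNGAAA occur in them. Both were searched on both strands, each stretch is printed on the strand of its gene, and capitals mark the matched letters.
Irgm1, chr11:48871420-48871465, minus strand: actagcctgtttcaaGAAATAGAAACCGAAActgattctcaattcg
Tgtp1, chr11:48992299-48992349, minus strand: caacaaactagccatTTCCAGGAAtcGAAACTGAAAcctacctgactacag
Tgtp2, chr11:49064258-49064308, minus strand: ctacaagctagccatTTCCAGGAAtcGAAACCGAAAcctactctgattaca
Igtp, chr11:58199496-58199546, plus strand: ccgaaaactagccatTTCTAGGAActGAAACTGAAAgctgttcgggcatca
Irgm2, chr11:58214887-58214937, plus strand: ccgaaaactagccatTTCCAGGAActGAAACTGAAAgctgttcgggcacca
In Tgtp1, Tgtp2, Igtp and Irgm2 a GAS match was followed after 2 bases by an ISRE match. Irgm1 had 2 overlapping ISRE matches and no GAS match. Of 32851 promoters of the same length, 8.30% held a GAS match, 3.44% an ISRE match and 0.454% both. The arrangement with 2 bases between them occurred in 5 promoters (0.0152%), those of the 4 genes just named and of Gm12185, a gene that overlaps Tgtp1. A match is a run of letters and does not show that a factor binds there.

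The regulator Irgm1 (ENSMUSG00000046879, chr11:48861968-48871683, minus strand) had its highest mean in Ly6Chi macrophages (172.7 CPM, against 147.3 CPM in neutrophils). Neutrophils were higher than Ly6Chi macrophages in C57BL/6 wild type and in BALB/c Ift88Orpk. Ly6Chi macrophages held 163 and 192 CPM in wild-type and Ift88Orpk C57BL/6 and 180.2 and 156 CPM in wild-type and Ift88Orpk BALB/c. In Ly6Clo macrophages the values in the same order were 111, 123, 72.5 and 79.5 CPM. Neutrophils held 169, 145, 97.7 and 177 CPM and DBA-sorted cells 95.4, 123, 89.6 and 80.6 CPM. All 4 Ly6Chi libraries lay above all 4 Ly6Clo and all 4 DBA-sorted libraries. The neutrophil libraries overlapped each of the other populations, with the BALB/c wild-type library lowest.

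Irgm2 (ENSMUSG00000069874, chr11:58199618-58222782, plus strand) was at 160.3 and 168 CPM in wild-type and Ift88Orpk C57BL/6 neutrophils and at 87.4 and 138 CPM in those of BALB/c. The Ly6Chi values in the same order were 93.4, 111, 79.2 and 71.5 CPM, and the Ly6Clo values 67.4, 84.8, 38.7 and 37.1 CPM. DBA-sorted cells held 93.5, 102.5, 37.5 and 45.8 CPM. In each population both C57BL/6 libraries lay above both BALB/c libraries. The ranges of neighbouring populations overlapped.

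Igtp (ENSMUSG00000078853, chr11:58199556-58207591, plus strand) was lowest in DBA-sorted cells, at 25.8 and 29.2 CPM in wild-type and Ift88Orpk C57BL/6 and 17.9 and 17.0 CPM in BALB/c. Ly6Clo macrophages held 34.6, 42.9, 26.3 and 32.5 CPM in the same order, and Ly6Chi macrophages 67.9, 71.6, 69.1 and 61.6 CPM. Neutrophils held 94.3, 77.9, 56.4 and 121 CPM. The 4 Ly6Chi values spanned a narrow range above every Ly6Clo and DBA-sorted value, while the neutrophil values were the most spread. Annotated exons of Igtp and Irgm2 share 162 bases, and 7.80% of the 75-base words of the Igtp transcripts also occur in another gene.

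Of the effectors, Tgtp1 (ENSMUSG00000078922, chr11:48985327-48994172, minus strand) and Tgtp2 (ENSMUSG00000078921, chr11:49057194-49064206, minus strand) are near copies. Their coding sequences of 1245 bases differ at 4 positions counted from the first base of the start codon (G270C, C408T, C729T and C735A, Tgtp1 base first), none of which changes a codon's amino acid. Bases 676 to 735 of both are shown because they hold 2 of the 4 differences, in capitals, by which a read can be assigned.
Tgtp1: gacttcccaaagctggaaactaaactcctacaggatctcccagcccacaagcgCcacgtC
Tgtp2: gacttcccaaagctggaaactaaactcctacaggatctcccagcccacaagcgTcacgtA
Of the 75-base words of their transcripts, the length of 1 read, 77.2% of those of Tgtp1 and 81.4% of those of Tgtp2 occurred in another gene, so their counts cover the parts that differ and the split between them is uncertain.

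Tgtp2 was at 24.0 and 51.2 CPM in wild-type and Ift88Orpk C57BL/6 DBA-sorted cells and at 13.3 and 19.3 CPM in those of BALB/c. Ly6Chi macrophages held 29.2, 28.4, 17.4 and 22.7 CPM in the same order, and Ly6Clo macrophages 33.5, 31.5, 13.6 and 13.4 CPM. Neutrophils held 14.0, 14.6, 7.09 and 7.86 CPM. Both C57BL/6 libraries lay above both BALB/c libraries in every population, and neutrophils were lowest within each strain. Tgtp1 was low throughout, at 3.38 to 8.76 CPM (27 to 225 counts) in C57BL/6 and 1.37 to 10.9 CPM (27 to 232 counts) in BALB/c. Its highest value was the BALB/c Ift88Orpk DBA-sorted library at 10.9 CPM, against 1.46 CPM in the BALB/c wild-type library of the same population. Tgtp1 took 36.1% of the counts of both genes in that library (exact 95% interval 32.4 to 40.0%, counting error only) and 9.15 to 30.8% in the other 15.

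**Figure D1:**
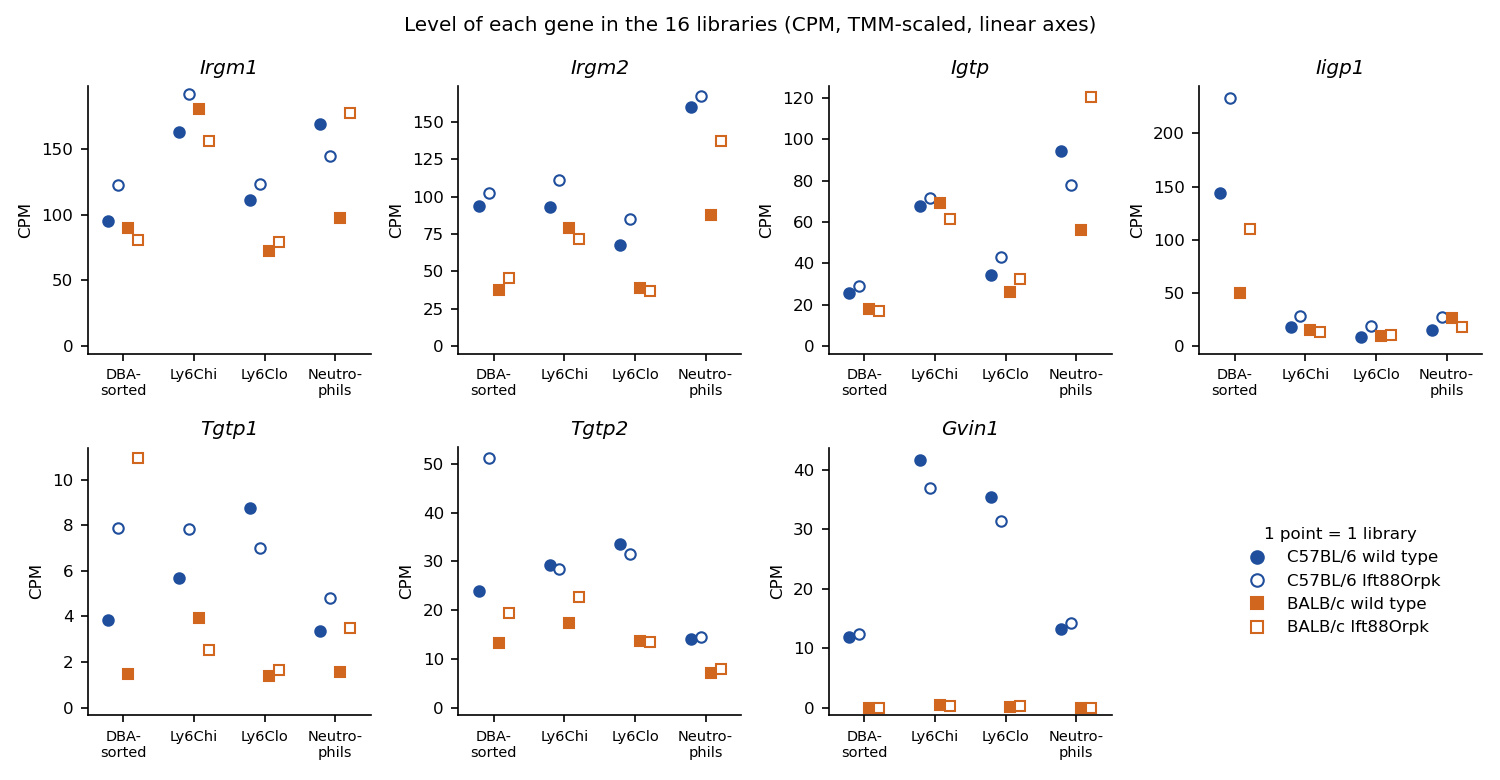
Level of each of the 7 genes in CPM (linear y axes from 0) by population, with 1 point for each of the 16 libraries; blue circles are C57BL/6, orange squares BALB/c, filled wild type and open Ift88Orpk. Iigp1 is highest in the DBA-sorted libraries (50.0 to 233 CPM), Igtp and Irgm1 are higher in Ly6Chi than in Ly6Clo libraries, and Gvin1 is near 0 in all 8 BALB/c libraries.

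Iigp1 (ENSMUSG00000054072, chr18:60376027-60392634, plus strand), the effector best studied in Toxoplasma infection, had its highest levels in DBA-sorted cells. DBA-sorted cells held 144 and 233 CPM in wild-type and Ift88Orpk C57BL/6 and 50.0 and 110.2 CPM in wild-type and Ift88Orpk BALB/c. Ly6Chi macrophages held 18.3, 28.7, 15.1 and 13.2 CPM in the same order, and neutrophils 15.5, 27.3, 26.8 and 18.2 CPM. Ly6Clo macrophages held 8.99, 18.7, 9.86 and 10.5 CPM. Every DBA-sorted library lay above all 12 leukocyte libraries, while the 3 leukocyte populations overlapped. Iigp1 made up 23.8 to 42.7% of the summed CPM of the 6 IRG genes in DBA-sorted cells and 3.40 to 9.67% in the leukocytes.

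Levels of different genes can be compared only per length, here as CPM per kilobase of annotated exon that overlaps no exon of another gene. This length joins the exons of all annotated transcripts of a gene, from 1860 bases for Igtp to 5823 for Iigp1. Which transcripts were present was not tested, and the order of the genes depends on it. Tgtp1, Tgtp2 and Gvin1 are left out of this comparison, since most of their length shares its 75-base words with other genes. Among the other 4 genes in DBA-sorted cells, Iigp1 was at 23.1 ± 13.2 CPM per kilobase (SD, n = 4 libraries of different strain or genotype, as for the following values), Irgm2 at 19.8 ± 9.33, Irgm1 at 16.7 ± 3.13 and Igtp at 12.1 ± 3.22. Their order differed between libraries. Iigp1 led in the Ift88Orpk libraries of C57BL/6 (40.1) and BALB/c (18.9 CPM per kilobase), Irgm2 in C57BL/6 wild type (26.5 against 24.8 for Iigp1), and in BALB/c wild type Iigp1 was lowest at 8.59, under Irgm1 at 15.4 CPM per kilobase. In Ly6Chi macrophages Igtp was at 36.3 ± 2.29, Irgm1 at 29.7 ± 2.83 and Irgm2 at 25.2 ± 4.94 CPM per kilobase. In neutrophils Igtp was at 46.9 ± 14.6 and Irgm2 at 39.2 ± 10.3 CPM per kilobase. In the leukocytes Iigp1 was at 2.06 ± 0.772 to 3.77 ± 1.03 CPM per kilobase, below each of the 3 regulators.

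The first comparison set Ly6Chi against Ly6Clo macrophages, the first being the subset usually linked to inflammation and the second to repair. All 3 regulators and Iigp1 were higher in Ly6Chi macrophages in 4 of 4 combinations of strain and genotype. The fitted log2 difference was 0.99 ± 0.12 (SE) for Igtp, 0.85 ± 0.13 for Irgm1, 0.69 ± 0.12 for Irgm2 and 0.63 ± 0.15 for Iigp1. For Tgtp1, Tgtp2 and Gvin1 it was 0.36 ± 0.36, 0.17 ± 0.17 and 0.31 ± 0.24, with pairs in both directions. For Gvin1 the only pair lower in Ly6Chi macrophages was BALB/c Ift88Orpk, at 3 against 6 counts, too few to show a direction. In edgeR's quasi-likelihood fit of the 8 macrophage libraries, 4 of the 7 genes passed an adjusted p of 0.05, all higher, where 24.5% of 16664 genes passed (12.3% higher and 12.2% lower); the genes were chosen on these values, so nothing is read from that count. Some of these calls changed with the libraries used. Iigp1 did not pass without the C57BL/6 Ift88Orpk libraries (0.65) or without the C57BL/6 wild-type libraries (0.51), nor in a fit without the block for strain and genotype (0.63), where Irgm2 (0.63) was lost too.

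Markers of lymphocytes and dendritic cells were higher in the Ly6Clo libraries. The 6 T and NK cell markers, none of them at 0 in all libraries of a population, summed to 90.6 to 389 CPM in Ly6Clo and 3.31 to 47.0 CPM in Ly6Chi libraries. The 5 dendritic cell markers summed to 137 to 323 CPM and 9.32 to 43.5 CPM. The part of these cells in the levels of the 7 genes was not tested.

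Other genes of the interferon pathway were called in both directions between the macrophage subsets. Of 14 tested relatives of the IRG and Gvin genes, 4 rose and 0 fell in Ly6Chi macrophages, a share near that of all genes, with a median log2 difference of 0.42 beside -0.01 over all genes tested. Gm12250 (called Irgb10), an IRG effector typed as a processed pseudogene in the annotation used, rose by 0.94 ± 0.09 (adjusted p = 0.000285, edgeR), from 17.2 to 43.4 CPM in Ly6Clo to 36.5 to 76.1 CPM in Ly6Chi libraries. Ifi47 (Irgd), an IRG gene added to the account later, rose by 1.22 ± 0.13 (adjusted p = 0.000442, edgeR). Of 11 guanylate-binding protein genes 7 rose and 1 fell, with a median of 1.22. Gbp2, a partner of IRG proteins on the vacuole, rose by 1.68 ± 0.08 (adjusted p = 1.63e-05, edgeR) and Gbp5 by 1.63 ± 0.12 (adjusted p = 7.32e-05, edgeR), while Gbp8 fell by 0.73 (SE 0.14, adjusted p = 0.00528, edgeR).

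Of 22 tested genes for interferon receptors and signalling, 12 rose and 3 fell in Ly6Chi macrophages, with a median of 0.32. Some calls of this list and of the LC3 and GABARAP list below were lost with 1 combination of strain and genotype left out. Stat2, a part of the complex that binds the ISRE, rose by 0.96 ± 0.09 (adjusted p = 0.000207, edgeR), and Irf7, an amplifier of type I interferon, by 1.26 ± 0.13 (adjusted p = 0.00027, edgeR). Ciita, the regulator of MHC class II, fell by 1.29 on the log2 scale (SE 0.12, adjusted p = 0.000197, edgeR). Ifng fell by 4.10 (SE 0.63, adjusted p = 0.00213, edgeR), from 1.83 to 9.65 CPM in Ly6Clo to 0 to 1.12 CPM in Ly6Chi libraries, the same direction as the T and NK cell markers above. Of 14 genes for loading LC3 and GABARAP proteins onto membranes, by which IRG proteins find their vacuole, 4 rose and 0 fell, a share near the 24.5% of all genes, with a median of 0.20. Among them were Gabarap at 0.60 ± 0.08 (adjusted p = 0.000983, edgeR) and Atg7 at 0.54 ± 0.09 (adjusted p = 0.00235, edgeR).

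DBA-sorted cells against the mean of the 3 leukocyte populations gave opposite signs for different IRG genes. Iigp1 was higher by 2.92 ± 0.21 on the log2 scale and Tgtp2 by 0.50 ± 0.18. Igtp was lower, with a log2 difference of -1.38 ± 0.18, as were Irgm1 at -0.46 ± 0.15, Irgm2 at -0.41 ± 0.15 and Gvin1 at -1.27 ± 0.40. Tgtp1 was at 0.49 ± 0.46. In the edgeR fit of all 16 libraries 6 of the 7 passed, 2 higher and 4 lower, where 59.5% of 19183 genes passed (31.1% higher and 28.4% lower), from which again nothing is read. Leaving out 1 combination changed some of these calls, which is given for completeness and ranks no gene. Irgm1 did not pass without the C57BL/6 Ift88Orpk (-0.45), C57BL/6 wild-type (-0.36) or BALB/c Ift88Orpk (-0.39) libraries, Irgm2 without the C57BL/6 Ift88Orpk (-0.42), BALB/c Ift88Orpk (-0.33) or BALB/c wild-type (-0.27) libraries, Tgtp2 without the C57BL/6 (0.31) or BALB/c (0.48) Ift88Orpk libraries, and Gvin1 when either the Ift88Orpk (-1.48) or the wild-type (-1.40) libraries of C57BL/6 were left out.

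Most other genes of the pathway were lower in DBA-sorted cells. Of 22 genes for interferon receptors and signalling 19 fell and 2 rose, with a median of -1.09 beside 0.02 over all genes. Ifngr1, the ligand-binding chain of the interferon gamma receptor, fell by 2.52 (SE 0.18, adjusted p = 2.52e-08, edgeR), from 166 to 621 CPM in the leukocytes to 58.4 to 79.7 CPM. Of 15 IRG and Gvin relatives 9 fell and 4 rose, of 11 guanylate-binding protein genes 5 fell and 1 rose (median -0.32), and of 14 LC3 and GABARAP loading genes 7 fell and 1 rose (median -0.47). The shares of the last 2 lists are near the 59.5% of all genes. Gbp5 fell by 2.37 (SE 0.26, adjusted p = 2.56e-06, edgeR), and Gm1966, a Gvin-like gene annotated as a pseudogene, fell by 6.06 (SE 0.35, adjusted p = 3.21e-09, edgeR). Against this direction, Gbp4 rose by 0.92 ± 0.17 (adjusted p = 0.000328, edgeR) and Gabarapl1 by 1.88 ± 0.15 (adjusted p = 6.53e-08, edgeR).

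Among the 4 relatives that rose in DBA-sorted cells are 3 IRG-like genes that lie beside Iigp1 on chromosome 18, named here after their values were seen. Gm4951 (chr18:60212080-60247820, plus strand) was at 21.4 to 62.3 CPM in DBA-sorted cells and at 1.21 to 12.4 CPM in the leukocytes, and rose by 3.28 ± 0.34 on the log2 scale (adjusted p = 1.41e-06, edgeR). F830016B08Rik (chr18:60293380-60303016, plus strand) was at 6.18 to 29.0 CPM against 0.0551 to 3.22 CPM and rose by 3.63 ± 0.55 (adjusted p = 5.32e-05, edgeR). Gm4841 (chr18:60268305-60273272, minus strand) was at 1.04 to 2.59 CPM against 0 to 0.869 CPM and rose by 3.32 ± 1.10 (adjusted p = 0.0175, edgeR), a call not made without the C57BL/6 wild-type libraries (2.66). Levels higher in DBA-sorted cells than in leukocytes were thus seen for Iigp1 and these neighbours, with Gm4841 low in every library.

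**Figure D2:**
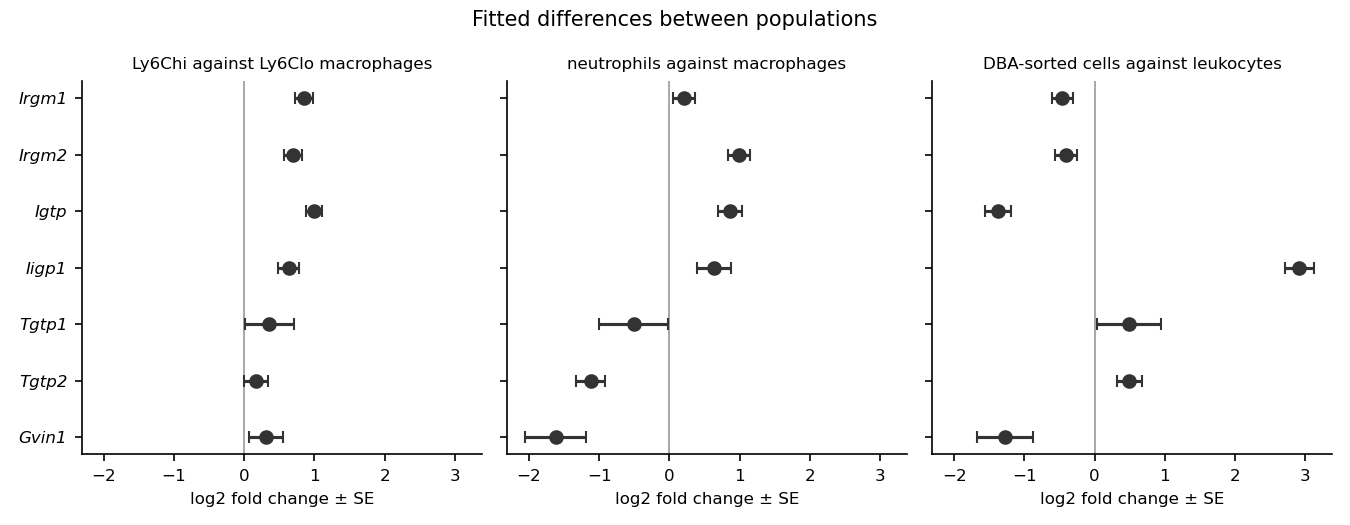
Fitted log2 fold change (x axis, ± SE) of each of the 7 genes (y axis) in 3 comparisons of populations, with 0 as the grey line. Igtp, Irgm1, Irgm2 and Iigp1 lie between 0.63 and 0.99 in Ly6Chi against Ly6Clo macrophages, and Iigp1 lies at 2.92 in DBA-sorted cells against leukocytes while Igtp lies at -1.38.

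Neutrophils against the mean of the macrophage subsets separated the regulators Irgm2 and Igtp from Tgtp2 and Gvin1. Irgm2 was higher by 0.99 ± 0.16 on the log2 scale, Igtp by 0.86 ± 0.17 and Iigp1 by 0.63 ± 0.24, with Irgm1 at 0.20 ± 0.16. Tgtp2 and Gvin1 were lower, with log2 differences of -1.12 ± 0.21 and -1.62 ± 0.43, and Tgtp1 was at -0.51 ± 0.49. In the same fit 5 of the 7 passed, where 50.9% of 19183 genes passed (24.9% higher and 26.0% lower), and nothing is read from that count. Iigp1 no longer passed when any of the 4 combinations was left out (0.40 to 0.73), nor did Gvin1 without the C57BL/6 wild-type libraries (-1.82). Relative log expression scaling moved the median of all genes in this comparison from -0.09 to 0.08, a shift smaller than each of the differences that passed.

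Of the lists, 9 of 14 LC3 and GABARAP loading genes rose and 1 fell in neutrophils, with a median of 0.67 beside -0.09 over all genes. Map1lc3b rose by 1.80 ± 0.12 (adjusted p = 6.6e-08, edgeR), from 92.7 to 139 CPM in macrophages to 299.9 to 463 CPM, and Atg3, which attaches lipid to LC3, by 2.53 ± 0.20 (adjusted p = 3.25e-07, edgeR). Of 22 receptor and signalling genes 12 rose and 4 fell, with a median of 0.46. Socs3, a brake on cytokine signalling, rose by 2.19 ± 0.18 (adjusted p = 4.21e-07, edgeR) and Ciita fell by 3.54 (SE 0.25, adjusted p = 8.18e-08, edgeR). Of 11 guanylate-binding protein genes 4 rose and 2 fell, a share near the 50.9% of all genes, with a median of 0.35. Gbp2 was at 1.81 ± 0.25 (adjusted p = 4.78e-05, edgeR) and Gbp4 at -1.36 ± 0.21 (adjusted p = 8.58e-05, edgeR). Of 15 relatives 2 rose and 3 fell, with a median of 0.03.

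Gvin1 (ENSMUSG00000045868, chr7:106156556-106215326, minus strand) differed between the strains in every matched pair, and its sequence bears on what the count can show. Its main transcript and that of its neighbour Gm4070 are 8795 bases long and differ at 3 bases, all coding (G1805T, G4904A and C7075T, Gvin1 base first, counted from the first base of the start codon). Of the 75-base words of Gvin1 98.3% occur in other genes, most of them in Gm4070. The only words of its own are 150 that cover G1805T or C7075T. G4904A gives none, since the Gvin1 base there is shared with Gm1966, Gm4759, Gm8979 and Gm8989. The surroundings of the 2 informative bases, in capitals, are shown from the C57BL/6J reference (GENCODE, GRCm38, chromosome 7).
Gvin1, bases 1775 to 1835: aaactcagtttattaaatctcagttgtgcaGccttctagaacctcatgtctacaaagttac
Gm4070, bases 1775 to 1835: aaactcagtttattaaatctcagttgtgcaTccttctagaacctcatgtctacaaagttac
Gvin1, bases 7045 to 7105: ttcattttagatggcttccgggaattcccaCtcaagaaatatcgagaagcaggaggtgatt
Gm4070, bases 7045 to 7105: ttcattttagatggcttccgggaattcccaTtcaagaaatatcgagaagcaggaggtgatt
A single read of 75 bases can thus be assigned to Gvin1 only where it crosses 1 of these 2 bases of the reference.

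In C57BL/6, Gvin1 had 106 to 1009 counts in every library. DBA-sorted cells held 11.9 and 12.3 CPM in wild type and Ift88Orpk, Ly6Chi macrophages 41.7 and 36.9 CPM, Ly6Clo macrophages 35.5 and 31.4 CPM, and neutrophils 13.3 and 14.2 CPM. Every macrophage library thus lay above every library of the other populations, by more than the genotypes differed within any population. In BALB/c the 8 libraries held 18 counts in all, with 0 counts in 4 of them and at most 8 (0.420 CPM) in the others.

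In the 4 matched pairs where BALB/c had 0 counts, Gvin1 was at least 49.9 to 87.2-fold lower than in C57BL/6 (against a floor of 3 counts in the BALB/c library). In Ly6Chi macrophages it was 99.1-fold lower in wild type (8 against 493 counts, 95% interval 49.9 to 231) and 191-fold lower in Ift88Orpk (3 against 890 counts, 65.2 to 929). In Ly6Clo macrophages the ratio of BALB/c to C57BL/6 was 0.00143 in wild type (1 against 644 counts, 3.62e-05 to 0.00801) and 0.00827 in Ift88Orpk (6 against 1009 counts, 0.00303 to 0.0181). No BALB/c library came near any C57BL/6 library in any population. These intervals cover counting error only.

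Gm4070 was counted in both strains, at 9.40 to 53.8 CPM in C57BL/6 and 4.32 to 38.6 CPM in BALB/c, lower in BALB/c in 6 of 8 pairs. Of the counts of both genes, Gvin1 took 37.8 to 60.2% in the C57BL/6 libraries and 0 to 1.08% in the BALB/c libraries. In the BALB/c wild-type DBA-sorted library, the shallowest for this share, 0 of 86 counts allowed up to 3.49% (the floor of 3 counts over the total). The strains' ranges of this share did not overlap. Whether BALB/c cells lack the transcript, or carry other bases at the positions that set Gvin1 apart in the C57BL/6J reference, cannot be told apart in these counts.

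**Figure D3:**
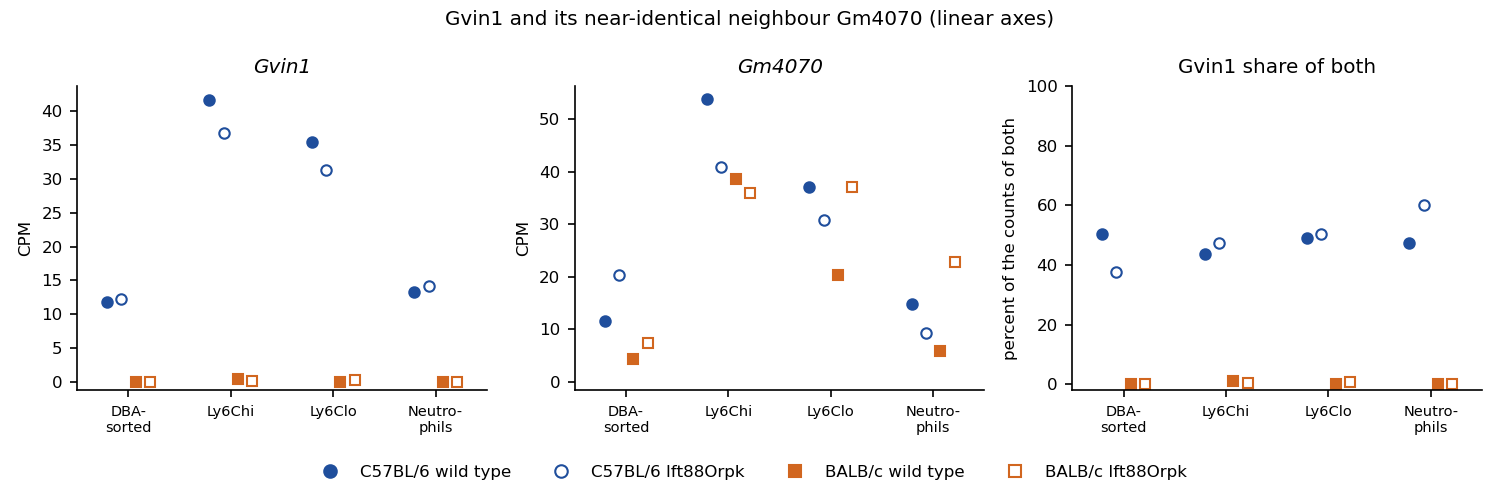
CPM of Gvin1 (left) and of its neighbour Gm4070 (middle), and Gvin1's percent of the counts of both (right), by population on linear axes, 1 point per library; blue circles are C57BL/6, orange squares BALB/c, filled wild type and open Ift88Orpk. The Gvin1 share is 37.8 to 60.2% in the 8 C57BL/6 libraries and at most 1.08% in the 8 BALB/c libraries, while Gm4070 is counted in all 16.

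Other genes of the Gvin cluster differed between strains in both directions, in the edgeR fit over the 4 populations. That fit has no block for strain and genotype combination: strain rests on 2 combinations against 2, and if the populations of a combination came from the same mice, which the labels do not say, its p-values are too small. Gm1966 fell in BALB/c by 2.28 (SE 0.25, adjusted p = 0.00279, edgeR) and was lower in 8 of 8 pairs, with a median of 147 CPM against 823 CPM in C57BL/6. Gm1966, Gm18853, Gm8979 and Gm8995 are all annotated as pseudogenes. Gm18853 lies inside the span of Gvin1 on the same strand (chr7:106186404-106189999, minus strand) and shares no exon bases with it. It is thus not a locus apart from Gvin1, and whether its counts are independent of that gene was not tested. Gm18853 had 4 counts in all BALB/c libraries together and 820 in C57BL/6 (adjusted p = 0.00591, edgeR). Gm8979 rose by 3.63 ± 0.56 (adjusted p = 0.0112, edgeR), with 559 counts in BALB/c and 84 in C57BL/6 and a higher level in BALB/c in 6 of 8 pairs. Gm8995 had medians of 784 CPM in C57BL/6 and 695 CPM in BALB/c and did not pass (0.35 ± 0.16, adjusted p = 0.29, edgeR). These genes form a family of similar sequences, so the split of their counts is uncertain in both strains, and the BALB/c sequence was not used here.

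The IRG genes were lower in BALB/c than in C57BL/6 by smaller factors. Reads of both strains were counted on GRCm38, the C57BL/6J reference, and the BALB/c sequence was not used here. The part of strain variants in these differences was not tested, and the split between Tgtp1 and Tgtp2 is uncertain. Irgm2 was lower in 8 of 8 pairs, with ratios of BALB/c to C57BL/6 between 0.401 and 0.848, and Tgtp2 in 8 of 8, with ratios between 0.377 and 0.800. Over the 4 populations the fitted log2 difference was -0.81 ± 0.11 for Irgm2 and -0.97 ± 0.13 for Tgtp2. For Tgtp1 it was -1.16 ± 0.31 (lower in 7 of 8 pairs), for Iigp1 -0.57 ± 0.19 (6 of 8), for Irgm1 -0.33 ± 0.14 (6 of 8) and for Igtp -0.30 ± 0.15 (6 of 8). The pairs in which Igtp and Irgm1 were higher in BALB/c were wild-type Ly6Chi macrophages and Ift88Orpk neutrophils.

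Across populations the strain difference of Irgm2 ranged from -0.44 ± 0.22 in Ly6Chi macrophages to -1.24 ± 0.23 in DBA-sorted cells, and that of Iigp1 from 0.10 ± 0.39 in neutrophils to -1.30 ± 0.38 in DBA-sorted cells. Whether these differ between populations was not tested. Within single populations 1 of the 7 passed in each, Gvin1, where 0.297% of 21534 genes passed in DBA-sorted cells, 0.334% in Ly6Chi and 0.306% in Ly6Clo macrophages and 1.34% in neutrophils. In the first 3 populations Gvin1 was lost whichever of the 4 libraries of that population was left out. Over the 4 populations 3 of the 7 passed, all lower (Gvin1, Irgm2 and Tgtp2), where 4.24% passed (1.89% higher and 2.35% lower). Irgm2 did not pass without the C57BL/6 or the BALB/c Ift88Orpk Ly6Chi library (-0.76 in both), and Igtp then passed without either Ift88Orpk neutrophil library (-0.47 in both). The genes were chosen on these values, and nothing is read from the counts. The background moved too with 1 library left out. The genes passing for strain then numbered 4 to 116 in Ly6Chi macrophages (72 with all libraries), 5 to 97 in Ly6Clo macrophages (66), 33 to 70 in DBA-sorted cells (64), 110 to 306 in neutrophils (288) and 285 to 1236 over the 4 populations (912).

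**Figure D4:**
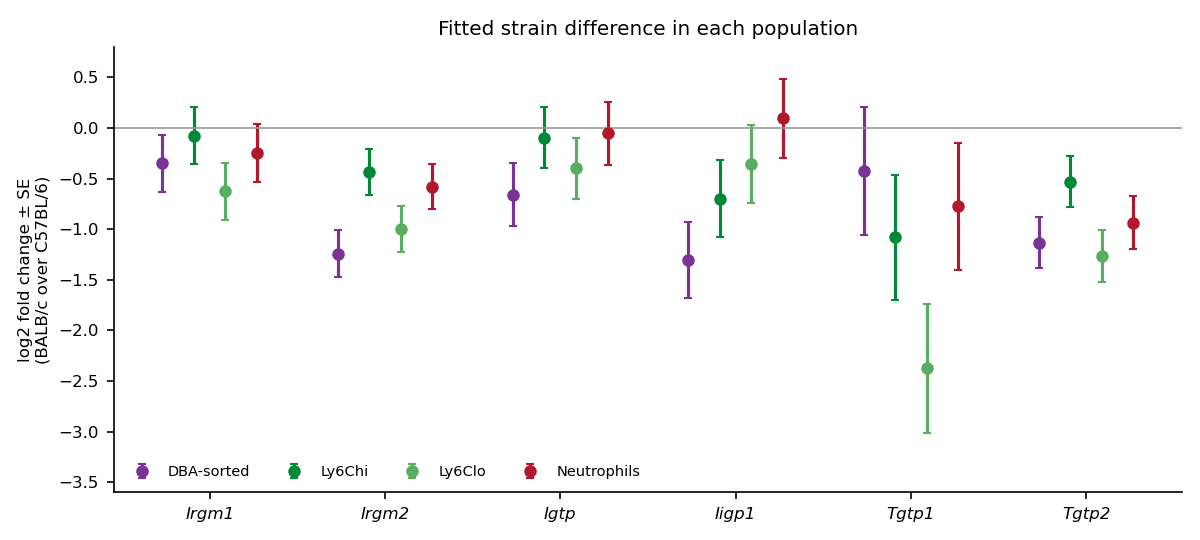
Fitted log2 fold change of BALB/c over C57BL/6 (y axis, ± SE) for the 6 IRG genes (x axis) in each population (colours), with 0 as the grey line; Gvin1 is left out because its fitted value against libraries at 0 depends on a prior count. Irgm2 and Tgtp2 lie below 0 in all 4 populations, and Iigp1 runs from -1.30 in DBA-sorted cells to 0.10 in neutrophils. Reads of both strains were counted on the C57BL/6J reference.

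Among other genes of the pathway, Gbp2b (Gbp1) went the other way. It rose in BALB/c by 4.54 ± 0.20 over the 4 populations (adjusted p = 2.79e-05, edgeR) and in 8 of 8 pairs. In Ly6Chi macrophages Gbp2b was at 6.59 and 7.04 CPM in C57BL/6 and at 110.0 and 114 CPM in BALB/c. Gbp2 fell by 1.19 (SE 0.15, adjusted p = 0.00433, edgeR), and Gbp6 fell by 3.06 (SE 0.69, adjusted p = 0.0483, edgeR), so of 11 guanylate-binding protein genes 1 rose and 2 fell. Of 16 IRG and Gvin relatives 1 rose and 4 fell, and among these Gm12250 fell by 0.71 (SE 0.13, adjusted p = 0.0215, edgeR). Of 22 receptor and signalling genes 1 rose, a share near the 4.24% of all genes, Ifnar2 by 0.75 ± 0.10 (adjusted p = 0.00645, edgeR), and 0 fell, and of 14 LC3 and GABARAP loading genes 0 passed. Ifi47 fell by 0.72 (SE 0.15, adjusted p = 0.0369, edgeR) and was lower in 8 of 8 pairs. With 1 library left out, Gm12250 passed in 6, Gm8979 in 12, and Gbp6 and Ifi47 each in 4 of 16 fits, with the same sign throughout (log2 differences of -0.81 to -0.61, 3.33 to 4.68, -4.30 to -2.61 and -0.87 to -0.58).

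For some lists of cell type markers the summed levels lay apart between strains. They did not overlap for 7 of the 10 marker lists in Ly6Chi libraries, 3 in neutrophil, 2 in Ly6Clo and 1 in DBA-sorted libraries. With 2 libraries a strain, ranges often fall apart by order alone. The share over all genes was not counted, so nothing is read from these numbers of lists. The sums below are from lists higher in C57BL/6, while others, such as cholangiocyte markers in Ly6Chi libraries, were higher in BALB/c. In Ly6Chi libraries neutrophil markers summed to 651 to 951 CPM in C57BL/6 and 106 to 147 CPM in BALB/c, and T and NK cell markers to 44.7 to 47.0 and 3.31 to 4.69 CPM. In neutrophil libraries Ly6Chi monocyte markers summed to 1719 to 2245 CPM in C57BL/6 and 207 to 472.5 CPM in BALB/c. In Ly6Clo libraries dendritic cell markers summed to 257 to 323 and 137 to 224 CPM, and in DBA-sorted libraries hepatocyte markers to 2264 to 3601 and 1681 to 1900 CPM. The part of these cells in the strain differences was not tested.

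Libraries labelled Ift88Orpk were compared with wild type within each strain and population. Iigp1 was higher in Ift88Orpk in 4 of 4 populations of C57BL/6, with ratios of 1.62 in the DBA-sorted pair (95% counting interval 1.54 to 1.70), 1.57 in Ly6Chi macrophages (1.34 to 1.84), 2.08 in Ly6Clo macrophages (1.75 to 2.49) and 1.76 in neutrophils (1.44 to 2.16). In BALB/c the ratio was 2.20 in DBA-sorted cells (2.04 to 2.38), 0.877 in Ly6Chi macrophages (0.730 to 1.05), 1.06 in Ly6Clo macrophages (0.878 to 1.29) and 0.679 in neutrophils (0.571 to 0.804). The strains thus shared the direction in DBA-sorted cells and differed in neutrophils.

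Irgm2 was also higher in Ift88Orpk in 4 of 4 C57BL/6 pairs, with ratios of 1.04 to 1.26, and in 2 of 4 BALB/c pairs, with ratios of 0.903 to 1.57. Tgtp2 in DBA-sorted cells was higher in Ift88Orpk by a ratio of 2.14 in C57BL/6 (1.90 to 2.40) and 1.46 in BALB/c (1.25 to 1.71), and between 0.939 and 1.30 in the leukocyte pairs. Tgtp1 in DBA-sorted cells had ratios of 2.06 in C57BL/6 (1.54 to 2.79) and 7.50 in BALB/c (5.09 to 11.4). In DBA-sorted cells all 3 effectors were therefore higher in the Ift88Orpk library of both strains, each strain being 1 pair of libraries. The split between Tgtp1 and Tgtp2 is uncertain, so their ratios are not separate observations. In the fit for this population the log2 difference was positive for 7 of the 7 genes and for 11521 of 21534 genes tested. Igtp and Irgm1 were nevertheless lower in the BALB/c pair (ratios of 0.949 and 0.900). The BALB/c Ift88Orpk DBA-sorted library also held the most neutrophil and Ly6Chi monocyte markers of the 4, summing to 101 and 469 CPM, against 4.02 and 61.8 CPM in the BALB/c wild-type library. Their part in its values was not tested.

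In neutrophils Igtp and Irgm1 were higher in Ift88Orpk in BALB/c and lower in C57BL/6. In BALB/c the ratio of Ift88Orpk to wild type was 2.14 for Igtp (1.97 to 2.33), 1.81 for Irgm1 (1.70 to 1.94) and 1.57 for Irgm2 (1.46 to 1.69). In C57BL/6 it was 0.826 for Igtp (0.754 to 0.905), 0.856 for Irgm1 (0.800 to 0.915) and 1.04 for Irgm2 (0.978 to 1.12). The BALB/c Ift88Orpk neutrophil library had the lowest TMM factor of all 16 libraries, 0.6207, against 0.8046 for BALB/c wild-type neutrophils. A lower factor raises every CPM of a library, so the BALB/c ratios depend on this scaling. Among the neutrophil libraries the BALB/c wild-type one was lowest for all 3 regulators. It also held the lowest sum of the 7 neutrophil markers (7872 CPM, up to 13800 CPM in the others) and the highest sums of sinusoidal endothelial and hepatocyte markers (1997 and 4216 CPM), and the part of these in its values was not tested.

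With 1 library per strain and genotype, such pairs have no replicate, and their intervals cover counting error only. Taking the strains as replicates, the fitted log2 differences of Ift88Orpk against wild type in DBA-sorted cells were 1.96 ± 0.64 for Tgtp1, 0.92 ± 0.37 for Iigp1 and 0.82 ± 0.25 for Tgtp2. Over the 4 populations the values of the 6 IRG genes lay between 0.14 ± 0.14 for Irgm1 and 0.67 ± 0.31 for Tgtp1. None of the 7 passed in any population or over all 4, where 0.0% of 21534 genes passed in edgeR's test. At an unadjusted p under 0.05 the count was 1526 genes over the 4 populations, 1140 among DBA-sorted libraries, 934 among neutrophils, 408 for Ly6Chi and 348 for Ly6Clo macrophages. DESeq2 called 237, 72, 20, 7 and 11 genes in that order. The term for a different genotype effect in the strains was also passed by 0.0% (1202 genes at an unadjusted p under 0.05; 214 called by DESeq2), but 180 to 187 genes passed when any of the 4 DBA-sorted libraries was left out and 0 without any other library. The term was -0.67 ± 0.31 for Iigp1 and for the other 5 IRG genes between -0.01 ± 0.23 and 0.50 ± 0.65.

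**Figure D5:**
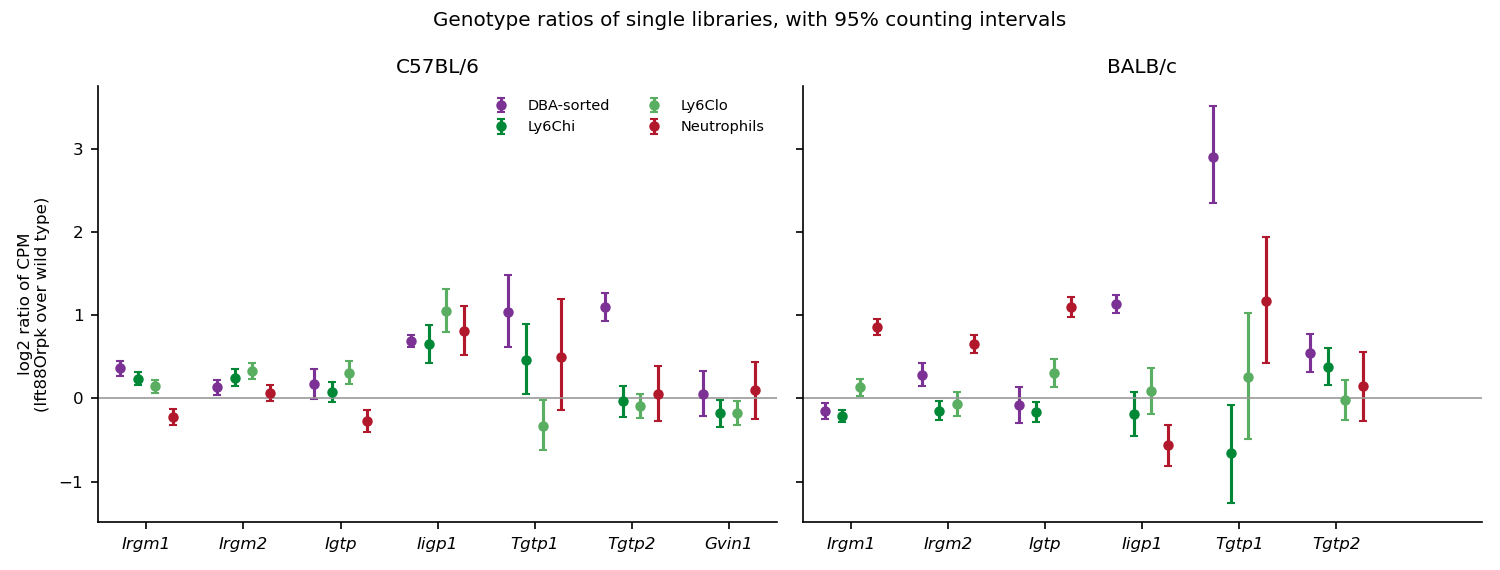
Log2 ratio of CPM in Ift88Orpk over wild type (y axis) for single pairs of libraries in C57BL/6 (left) and BALB/c (right), by gene (x axis) and population (colours), with exact 95% counting intervals; Gvin1 is not drawn for BALB/c, where 4 libraries had 0 counts. All 4 populations lie above 0 for Iigp1 in C57BL/6 (ratios of 1.57 to 2.08), and the 3 effectors lie above 0 in DBA-sorted cells of both strains.

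Other genes of the pathway were not called for genotype either. Gbp2 was higher in Ift88Orpk in 8 of 8 pairs, from 126 to 411 CPM in BALB/c neutrophils and from 23.4 to 25.5 CPM in BALB/c DBA-sorted cells. Over the 4 populations 9 of 11 guanylate-binding protein genes had a positive log2 difference, with a median of 0.42 beside 0.05 over all genes tested, and 0 passed. The 16 IRG and Gvin relatives had a median of -0.06, the 22 receptor and signalling genes 0.15 and the 14 LC3 and GABARAP loading genes 0.08, and 0 of each passed, over the 4 populations or within any of them.

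The 7 genes did not vary as 1 group over the 16 libraries, which share populations and strains and may share mice. Pearson's r of log2 levels was 0.852 between Igtp and Irgm1, 0.775 between Igtp and Irgm2 and 0.767 between Irgm1 and Irgm2. It was -0.466 between Igtp and Iigp1, 0.685 between Tgtp2 and Gvin1 and 0.698 between Tgtp1 and Tgtp2. Among 11206 other genes, those most like Igtp were Ifih1 (r = 0.975), Hpcal1 (0.973) and Gbp5 (0.972), and those most like Irgm1 were Parp14 (0.887), Nhsl2 (0.88) and Bnip3l (0.872). For Irgm2 they were Sh3glb1 (0.944), Lin7c (0.911) and Ifit3 (0.889). Iigp1 was followed most closely by Csrp2 (0.964), Clca3a1 (0.958) and Pdgfd (0.957), Tgtp1 by Magoh (0.801), Phax (0.8) and Numbl (0.795), and Tgtp2 by Ybx1 (0.94), Bzw1 (0.905) and Eif2s2 (0.902). Those most like Gvin1 were Hist1h4m (0.98), Ifi213 (0.978) and Rpl29 (0.974). The mean of all 7 was followed most closely by Myl12a (0.889), Mug2 (0.855), Ifi213 (0.821), Ifi206 (0.821), Trim34a (0.817), Ppp6c (0.81), Rpl29 (0.807) and Rpl36a (0.806).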

How the data were processed

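RNA of 16 libraries, 1 for each combination of strain, genotype and sorted population, was sequenced as paired reads of 75 bases per the labels' protocols, from RNA with an integrity number above 7. The deposited values are the authors' raw read counts per Ensembl gene, made with HTSeq-count 0.9.1 after alignment with STAR per the labels' protocols, and with bcl2fastq 2.18.0.12 on build GRCm38.p4 per the submitters' processing notes. STAR's version, how strand was set and which annotation release was counted are not given in the sources here, so reads of overlapping genes on opposite strands cannot be told apart. Reads that fit several places are normally left out of such counts. In these libraries 7.02 to 11.2% of the tallied reads were not uniquely aligned and 2.23 to 3.95% were ambiguous, and genes with near copies lose most of their reads this way. The 5 summary lines that name no gene stayed out of library sizes, and 48349 of 48795 identifiers matched the GENCODE M21 annotation. The authors' FPKM values were not used here.

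Counts were filtered with filterByExpr, scaled with TMM factors and tested with edgeR 4.0.16 in R 4.3.3 (quasi-likelihood test, Benjamini-Hochberg adjustment over all genes tested, threshold 0.05). SE is the log2 difference over the square root of F. Ly6Chi and Ly6Clo macrophages were compared in their 8 libraries with the 4 combinations of strain and genotype as a block, the other populations in all 16 libraries with the same block, and strain and genotype in all 16 with a term for population and, within each population, terms for strain and for genotype. Since 1 library stands for a group, the other factor's levels serve as replicates, and p-values measure the spread between those pooled libraries. The fits for Ly6Chi against Ly6Clo macrophages and for strain in neutrophils were tried on simulated counts drawn independently for each library. Such counts hold no mice shared between libraries, so they cannot show the error rate under that dependence. Ratios of single libraries carry exact 95% counting intervals from the binomial distribution, and a library at 0 was set to 3 counts. Likeness is Pearson's r of log2(CPM + 1) over 16 libraries among genes reaching 10 CPM in at least 1, without predicted genes, antigen receptor segments, mitochondrial, Xist and Y-linked genes. Per list and comparison at most 4 called genes of smallest p were named, besides genes named with their counts of pairs or as the only called gene of their direction; Ifi47, the Iigp1 neighbours on chromosome 18, and Gbp8, Gbp2b and Gbp2 in such places, were named after their values were seen. Gene lists, markers and the 7 genes were chosen with earlier results of these data known. Of the 20 listed IRG and Gvin relatives, 14 to 16 were tested in a comparison. Transcript words of 75 bases were compared over all GENCODE M21 transcripts. Alternatives were relative log expression factors, no filter beyond 1 count, DESeq2 1.42.0, leaving out libraries or combinations, no block, all 16 libraries for the macrophage comparison and an added strain by genotype term.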

Additional observations from a re-analysis of the deposited data

Results flagged for a closer look

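Among 28 groups of 4 libraries (7 genes in 4 populations), 1 value lay farther from its neighbours than Dixon's limit allows. Iigp1 in C57BL/6 Ift88Orpk Ly6Clo macrophages was at 18.7 CPM, against 8.99, 9.86 and 10.5 CPM in the other 3 Ly6Clo libraries. Chance flags about 1 in 20 such groups. The same library was not flagged for the other 6 genes.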

How the results depend on the processing

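Settings are compared by how many of the 7 genes passed the threshold. Without the block for strain and genotype, 2 of 7 passed in Ly6Chi against Ly6Clo macrophages instead of 4, and over all genes 1861 instead of 4075; with all 16 libraries and the block 1467 genes passed. No paired analysis was possible beyond this block because the labels number no replicates. DESeq2 called 3 of the 7 genes instead of 1 for strain in DBA-sorted cells and 4 instead of 1 in Ly6Clo macrophages. Leaving out 1 combination gave 3 to 4 in Ly6Chi against Ly6Clo macrophages, 2 to 5 in DBA-sorted cells against leukocytes (6 with all libraries) and 3 to 4 in neutrophils against macrophages (5 with all). Leaving out 1 library gave 0 to 1 for strain in DBA-sorted cells, Ly6Chi and Ly6Clo macrophages, 1 to 1 in neutrophils and 2 to 4 over the 4 populations (3 with all), and 0 to 0 for genotype and for the strain by genotype term. Scaling by relative log expression and the filter moved none of these counts by over 1.5 times. Over all genes DESeq2 called 478 instead of 64 for strain in DBA-sorted cells, 504 instead of 72 in Ly6Chi macrophages, 395 instead of 66 in Ly6Clo macrophages, 928 instead of 288 in neutrophils and 2081 instead of 912 over the 4 populations. Without the filter 124 passed for strain in Ly6Chi and 103 in Ly6Clo macrophages, and with the added strain by genotype term 1 passed for genotype in Ly6Clo macrophages and 2 over the 4 populations. For genotype in DBA-sorted cells 47 genes passed without the C57BL/6 Ift88Orpk library and 48 without the C57BL/6 wild-type library, where 0 passed with all; the cause was not tested. The strain by genotype term was passed by 180 to 187 genes without any of the DBA-sorted libraries. For strain, the counts fell to 4 to 11 in Ly6Chi and 5 to 7 in Ly6Clo macrophages without a library of that population, and over the 4 populations to 285 to 355 without a Ly6Chi and 336 to 354 without a Ly6Clo library. In the 3 comparisons of populations, some of the list genes counted as risen or fallen lost their call with 1 combination left out. The list genes named there passed in 4 of 4 such fits, except Gm4841. Depth limits Gvin1 in BALB/c (18 counts in all) and Tgtp1 (27 to 232 counts a library).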
